A study of Mus musculus with 12 samples.

Results

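The genes examined here encode 44 proteins that remodel or chemically mark chromatin, in splenic natural killer (NK) cells whose open chromatin was mapped by ATAC-seq. They were chosen by name, with earlier results of these data known. They are 15 subunits of the SWI/SNF remodelling complexes, 5 CHD remodellers, 5 Polycomb methyltransferase subunits and KDM6 demethylases, 5 DNA methyltransferases and TET enzymes, 7 histone deacetylases, 5 acetyltransferases and KMT2 methyltransferases, and the architectural proteins SATB1 and CTCF. Every peak within 50 kb of a gene body was given to its nearest protein-coding gene. After each library was reduced to its strongest peaks, as many as the shortest list held, 43 of the 44 genes had at least 1 region and together held 219 of the 45082 regions in the series. With every deposited peak kept, they held 320 of 66900. Hdac3 had none under this rule, because the region over its upper end, called in all 12 libraries, lies equally close to Rell2 and was given to that gene.

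The NK cells came from mice with floxed Regnase-1 alleles (Reg-1fl/fl, labelled WT) or with Regnase-1 deleted in NK cells (Reg-1ΔNK, labelled KO), and were either control cells or cells stimulated with IL-12 and IL-18. As these names are usually read, the KO cells carry the floxed alleles too, after recombination. Each of the 4 groups had 3 libraries of 100000 cells. The gene that drives the recombinase, the animals' age, the number of animals behind a library, and the dose and duration of the cytokines are not given in the sources used here. The labels do not say that the 3 libraries are from different animals, so each p-value rests on a spread between samples that may be technical. Regnase-1, encoded by Zc3h12a, is a nuclease that destroys transcripts of inflammatory genes. The design compares chromatin with and without it, at rest and under cytokine.

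A region was counted as called in a library when it overlapped one of these strongest peaks by at least 1 bp. The deposited lists of WT stimulated cells were the longest, at 55146 to 63128 distinct peaks. KO stimulated replicate 1 had the shortest list, so all of its peaks counted, down to a −log10 q of 1.31, whereas the weakest counted peak of the other 11 libraries had a −log10 q of 4.6 to 27.1. A fold below is the authors' deposited value for a peak over the background of its own library, given to describe the peak and not to compare libraries. A weaker peak below is one outside the strongest peaks of its own library, so its fold can exceed that of a called peak elsewhere. The start windows of all 7 NK cell marker genes that have one (Ncr1, Klrb1c, Klrk1, Eomes, Tbx21, Prf1 and Gzmb) were called in 12 of 12 libraries, and those of the T cell genes Cd3e, Cd3d and Cd8a, the B cell genes Cd79a and Pax5 and the erythroid genes Klf1 and Hbb-bt in none. Of the 3 myeloid markers, Lyz2 was called in 0 libraries, Itgam, which NK cells also express, in 11 and Cd68 in 12. Zc3h12a itself had 8 regions, of which 6 to 8 were called in each library. Since the samples are bulk, fewer cells with an open region and less opening per cell cannot be told apart.

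Chromatin remodellers of the SWI/SNF and CHD families use ATP to slide or evict nucleosomes, and so decide which enhancers and promoters transcription factors can reach. Histone and DNA modifying enzymes write or erase marks: EZH2 places the repressive methyl mark of Polycomb, KMT2 proteins methylate histone H3 at promoters and enhancers, EP300 and CREBBP acetylate histones, histone deacetylases remove acetyl groups, and TET enzymes oxidise methylated cytosine. In lymphocytes these proteins take part in fixing which effector genes can be switched on by cytokines, and the genes that encode them have regulatory regions of their own, which are what was measured here.

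The start sites are printed first because sequence is at hand for them and most were called under every condition. They are not the only such regions, since of the 109 member regions called in all 12 libraries 34 lay over a start window and 25 were at genes without one in the table. Of the 44 genes, 35 have a start window in the RefSeq promoter table (250 bases before to 50 after the start, build GRCm38.p6, the assembly of mm10), and at 32 of them a region over that window was assigned to the gene. The region was called in all 12 libraries at 31 of these 32 genes. The exception, Crebbp, was called in 10 libraries and held a deposited peak in 12. Of genes outside the 32, Smarcd2 had its window called in 0 libraries and Brd9 had its windows called in 12. No share over all start windows of the series is given here, so this constancy is not read as a trait of the members. The 250 bases before the start, 5′ to 3′ on the gene's own strand, are shown for Tet2, Arid1a and Kmt2a, whose start region stayed called while a region 1.26, 4.47 and 6.86 kb away changed, and for Smarcc1, whose 3 regions were all called in every library. Capitals mark the ETS core CCGGAAG in either orientation. Tet2 is on the minus strand (chr3:133544391-133544640), as are Arid1a (chr4:133753986-133754235) and Kmt2a (chr9:44881290-44881539), and Smarcc1 is on the plus strand (chr9:110131774-110132023).
Tet2: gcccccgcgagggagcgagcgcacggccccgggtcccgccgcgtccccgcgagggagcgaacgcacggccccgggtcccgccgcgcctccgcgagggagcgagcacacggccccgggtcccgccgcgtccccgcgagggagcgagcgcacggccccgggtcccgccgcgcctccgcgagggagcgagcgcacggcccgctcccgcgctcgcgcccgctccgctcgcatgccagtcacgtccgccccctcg
Arid1a: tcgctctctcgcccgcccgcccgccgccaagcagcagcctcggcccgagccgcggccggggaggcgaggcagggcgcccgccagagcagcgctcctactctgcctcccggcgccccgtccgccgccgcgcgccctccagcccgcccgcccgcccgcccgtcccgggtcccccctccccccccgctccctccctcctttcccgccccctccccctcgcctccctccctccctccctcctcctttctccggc
Kmt2a: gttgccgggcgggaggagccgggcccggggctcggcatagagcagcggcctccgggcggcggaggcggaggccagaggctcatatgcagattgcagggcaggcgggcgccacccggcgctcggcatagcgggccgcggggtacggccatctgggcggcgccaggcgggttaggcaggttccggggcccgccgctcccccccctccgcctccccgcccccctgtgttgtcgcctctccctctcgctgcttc
Smarcc1: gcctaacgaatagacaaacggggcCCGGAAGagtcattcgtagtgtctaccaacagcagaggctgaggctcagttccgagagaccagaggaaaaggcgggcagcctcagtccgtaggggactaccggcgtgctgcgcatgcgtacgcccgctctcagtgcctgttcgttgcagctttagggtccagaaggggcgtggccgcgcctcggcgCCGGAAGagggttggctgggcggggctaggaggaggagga

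The 300-base windows of the 4 genes are rich in CpG: 57 CpG and 81.3% G or C for Tet2, 36 and 79.7% for Arid1a, 36 and 75.7% for Kmt2a, and 33 and 66.0% for Smarcc1. The median over the 35 genes was 31 CpG, against 13 over the 21005 windows in the table. Motifs were searched on both strands. The AP-1 site TGANTCA was in 3 of the 35 windows (6.99% of all windows), the STAT site TTCNNNGAA in 2 (7.74%) and the ETS core CCGGAAG in 3 (11.7%). Smarcc1 holds 2 ETS cores, which do not overlap, and the windows of Tet2, Arid1a and Kmt2a hold none of the 3 motifs. A match is a run of letters and no measure of binding. The sequences of the regions that changed with stimulation are not printed, since they lie outside these windows.

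Stimulation with IL-12 and IL-18 changed 34 of the 219 regions, at 16 of the 43 genes. In the test of both genotypes together, 22 regions at 13 genes were called more often in stimulated cells, led by Tet2 with 4 and Chd7 with 3, and 12 regions at 7 genes were called less often, of which 5 were at Arid1b. The test compares the number of libraries with a call, by exact two-sided permutation within genotype, with Benjamini-Hochberg adjustment over all regions that can reach 0.05. Of the 52 member regions that could, 42.3% were higher and 23.1% lower, against 33.8% and 25.9% of the 8834 such regions in the series. Without adjustment 45 of the 52 (86.5%) passed, against 78.8% of all. With KO stimulated replicate 1 left out and the other libraries compared at 42520 peaks each, 25 regions were higher and 14 lower. Of the 34 regions, 23 kept their call there and 11 did not. Counted per gene, 9 genes only had regions that rose, 3 only had regions that fell, 4 had both and 27 had neither. Some change was thus seen at 37.2% of the genes, against 23.4% of all genes with a region. The chromatin genes also had more regions to test, with a median of 4 a gene against 2. A region's width had a median of 1359 bp, against 1223 bp near all genes.

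**Figure D1:**
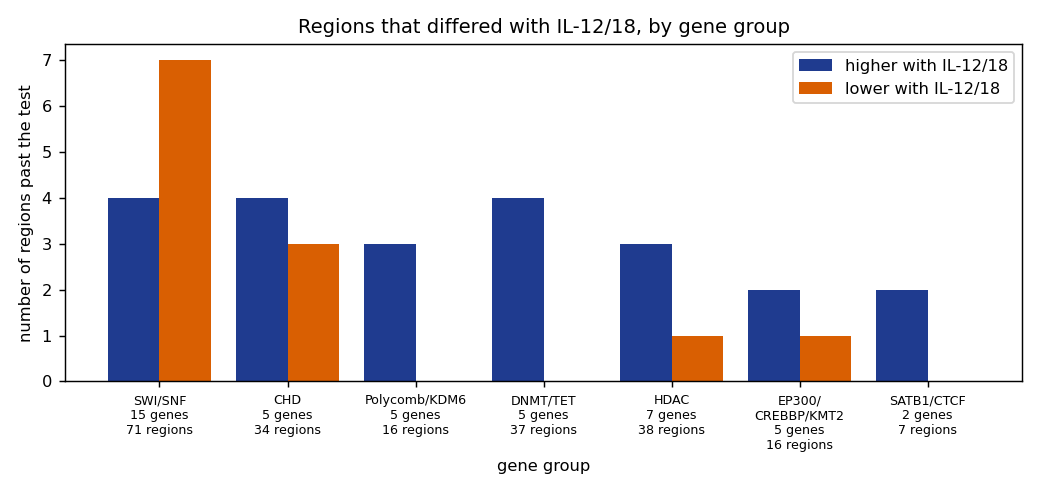
Number of regions (y axis) that passed the treatment test in each of the gene groups (x axis), higher in stimulated cells in blue and lower in orange, at an adjusted p of 0.05 or less in the exact stratified permutation test. SWI/SNF genes had 4 higher and 7 lower of 71 regions, and every group had 2 to 4 higher regions. Of all regions near genes, 6.12% were higher and 5.01% lower.

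Within WT cells, 27 of the 219 regions were gained, meaning that 3 of 3 stimulated libraries had the call and 0 of 3 controls did, which is 12.3% against 9.42% of all regions. Lost regions, the reverse, numbered 12 (5.48% against 6.42%). In KO cells 14 were gained (6.39% against 5.19%) and 13 lost (5.94% against 4.65%). Such single comparisons of 3 libraries with 3 carry no p-value, since their exact permutation p cannot fall below 0.1. The member shares thus lay on both sides of those of all regions.

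The number of member regions called per library was 165.3 ± 2.08 in WT control cells (SD, n = 3) and 176.3 ± 4.04 in WT stimulated cells, with libraries from 163 to 167 and from 172 to 180. In KO cells it was 163.3 ± 2.08 and 164.7 ± 3.21, with libraries from 161 to 165 and from 161 to 167. The WT groups did not overlap, and the KO groups did. Over all protein-coding genes the WT libraries ran from 30505 to 31425 in control and from 30812 to 31380 in stimulated cells, and the KO libraries from 30942 to 31221 and from 28709 to 30867, so that there the WT groups overlapped and the KO stimulated libraries were lower. Of the 219 regions, 109 (49.8%) were called in all 12 libraries, close to the 48.2% of all regions near genes.

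**Figure D2:**
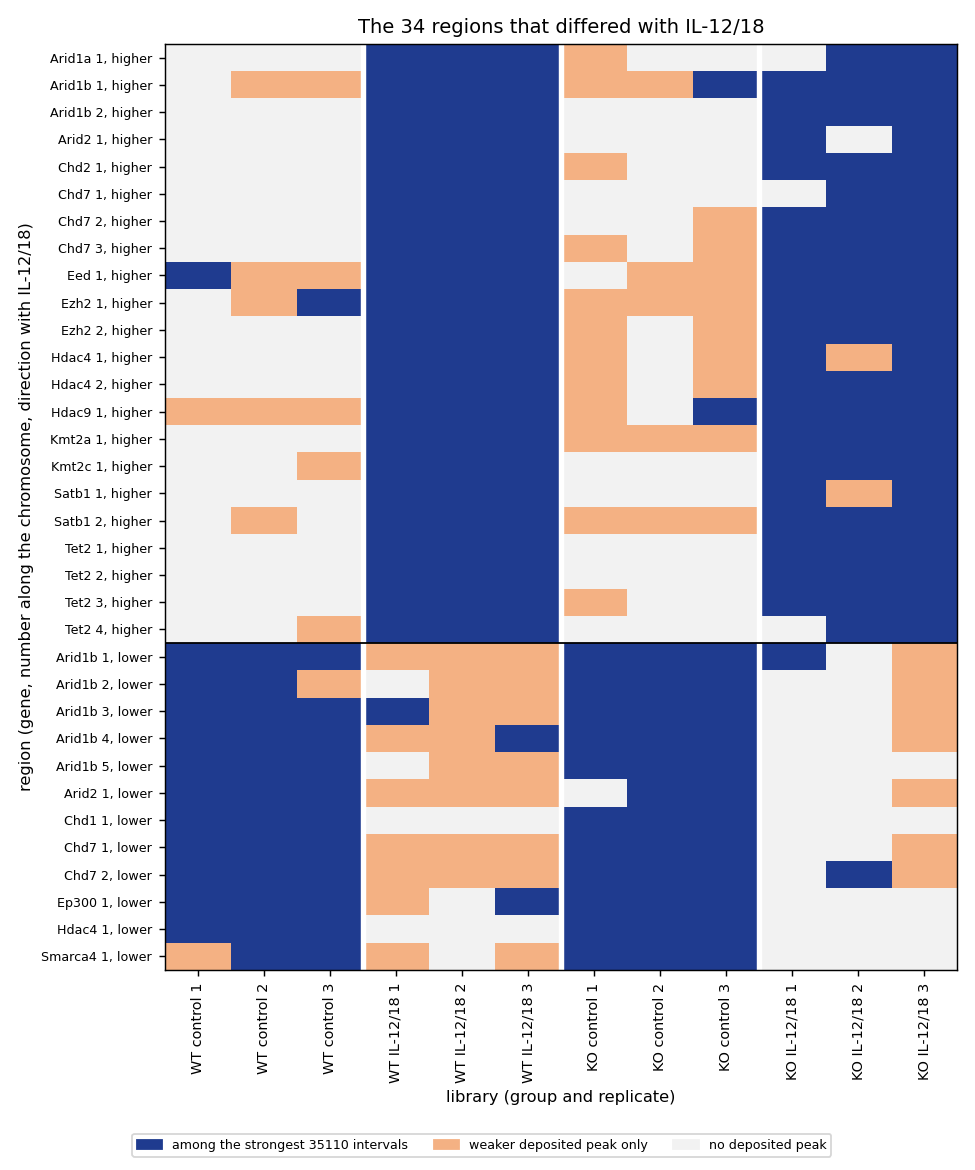
Each of the 34 regions that passed the treatment test (y axis, by gene) in each of the 12 libraries (x axis). Dark cells mark a call among the strongest peaks, equal in number in every library, orange cells a weaker deposited peak and pale cells no deposited peak; the 16 fully separated regions are dark in one treatment and never in the other.

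At most changing regions some library of the other treatment still held a peak. Of the 22 regions that were higher after stimulation, 6 lacked even a weak deposited peak in all 6 control libraries, and 16 had a weaker peak or a call in 1 to 5 of them. Of the 12 lower regions, 2 had no peak in any stimulated library. Most changing regions were distant from either end of their gene. Only 1 of the 22 higher and 0 of the 12 lower regions lay within 1 kb of a gene end, against 39 of the 109 regions called in all 12 libraries (35.8%). None of the 34 overlapped a start window, although for 5 higher and 4 lower regions the gene has no window in the table. Inside the gene body lay 17 of the 22 and 11 of the 12. The changing regions were also narrower than those called everywhere, with a median of 821.5 bp for the higher and 956 bp for the lower, against 1983 bp. The 76 other member regions, neither changed nor called everywhere, resembled the changing ones. Their median was 875.5 bp, and 2 (2.63%) lay within 1 kb of a gene end, so neither trait was particular to the changing regions. Width and call frequency are not independent measures in merged lists.

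At the level of whole genes, the number of called regions per gene rose at 6 genes (Tet2, Ezh2, Kmt2a, Satb1, Kmt2c and Arid1a) and fell at 3 (Arid1b, Chd1 and Ep300) after stimulation. That is 33.3% and 16.7% of the 18 chromatin genes that could be tested, against 24.1% and 25.3% of the 4775 such genes in the series (exact stratified permutation of libraries, Benjamini-Hochberg adjusted over all genes). Without adjustment 10 of the 18 passed (55.6%), against 64.8% of all. Without KO stimulated replicate 1, at 42520 peaks a library, 7 genes rose and 4 fell, and Kmt2a, Kmt2c and Satb1 were no longer among them. In both genotypes the stimulated libraries lay above all control libraries at Tet2, Ezh2 and Kmt2a, 6.98% of the 43 genes against 4.38% of all genes, and below all of them at Arid1b and Chd1, 4.65% against 3.84%.

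**Figure D3:**
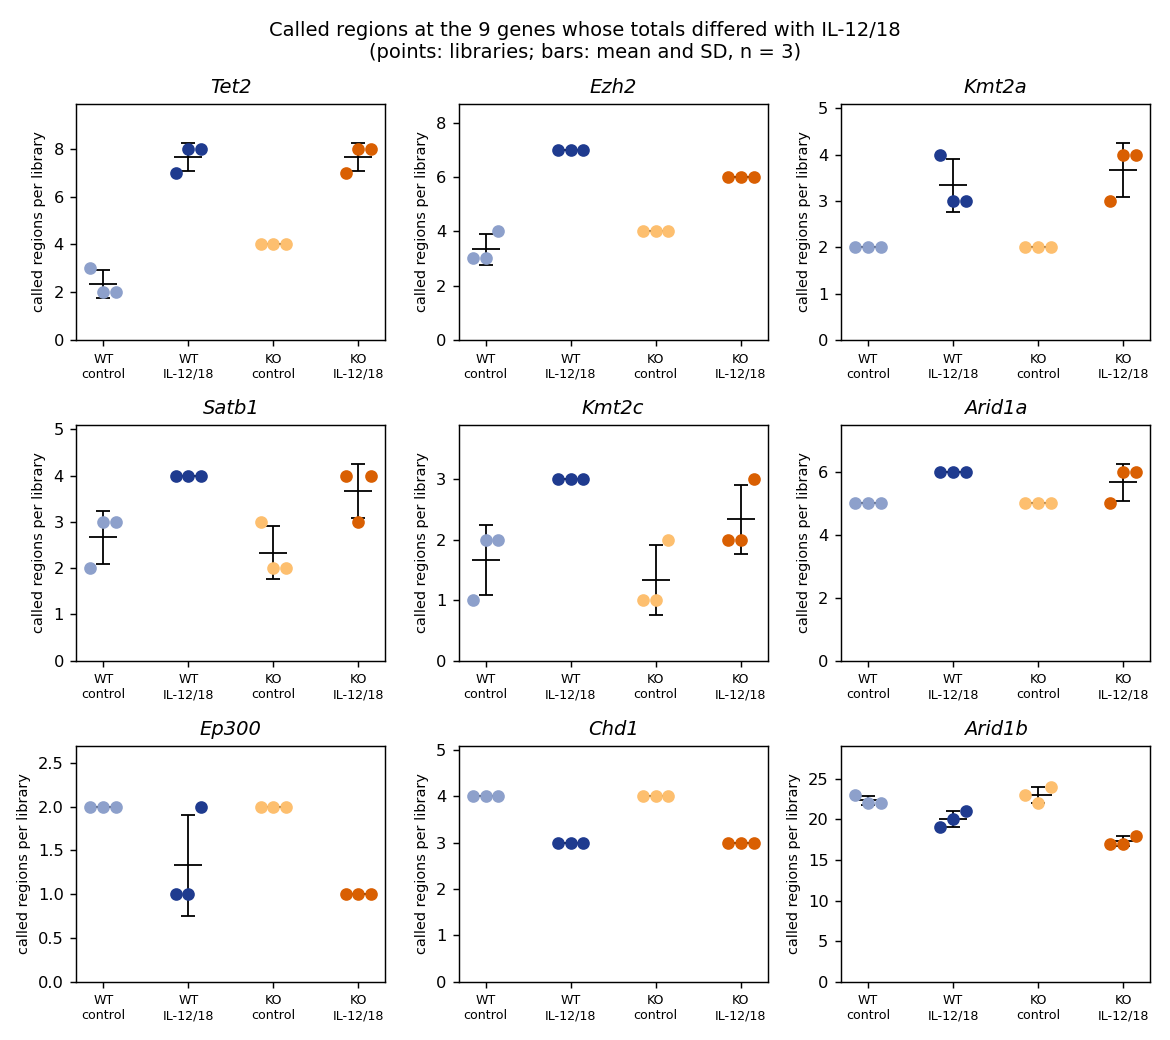
Called regions per gene (y axis) in each library (points) of the 4 groups (x axis), with the mean and SD (n = 3), for the 9 genes whose total passed the treatment test. The groups separate by treatment in both genotypes at Tet2, Ezh2, Kmt2a, Arid1b and Chd1, and meet or overlap in one genotype or both at the other 4.

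SWI/SNF is the remodelling complex that loosens nucleosomes at enhancers, and its 15 genes had 71 regions, of which 37 were called in every library. Of the 71 regions 4 rose and 7 fell, where 6.12% of all regions near genes rose and 5.01% fell. They lay at the genes of the DNA-binding subunits ARID1A, ARID1B and ARID2 and of the ATPase SMARCA4. The other 11 genes had no region past the test. At Smarcb1, Smarcc1, Smarcd1, Smarcd2, Smarce1 and Brd7, which encode core and accessory subunits, each region was called in 12 of 12 libraries. These 6 genes are named for that constancy and have 1 to 3 regions each, and calls at other core subunits, such as Smarcd3 with 3 to 5 a library, did vary.

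Arid1b (chr17, 4994297 to 5347656), which encodes an alternative DNA-binding subunit of the BAF form of SWI/SNF, had the most regions of any member, 28. In WT control libraries 23, 22 and 22 of them were called, in WT stimulated libraries 19, 20 and 21, in KO control libraries 23, 22 and 24, and in KO stimulated libraries 17, 17 and 18. Stimulated libraries were below control libraries in both genotypes with no overlap. The mean difference was −4 regions (adjusted exact permutation p = 0.0203), the 10th largest decrease of 14350 genes. Ranks here and below are by number of regions, which favours genes with many, and the median over all genes was 2. The decrease depended on which peaks were counted. When every deposited peak counted, the WT libraries overlapped (25, 28 and 29 against 27, 28 and 30). The KO stimulated libraries stayed below the KO control libraries (29, 28 and 30 against 18, 20 and 26). The test over both genotypes then had an adjusted exact p of 0.412. List length moves with these KO counts, since KO stimulated replicates 1 and 2 had shorter lists than every KO control library. KO stimulated replicate 3, with 26 regions, had a longer list than every KO control library. With lists of 50% the length the mean difference was 0.5. With calls covering 50% of a region it was −2.67 (adjusted exact p = 0.104).

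Of the changing regions of Arid1b, 5 fell and 2 rose. The region chr17:5163298-5164422, 168.8 kb into the gene, had folds of 14.4, 17.1 and 15.5 in WT control and 7.81, 7.89 and 7.82 in KO control libraries and was called in 0 of 6 stimulated libraries, with weaker peaks in 2 of the WT ones (adjusted exact p = 0.0169). The region chr17:5016876-5017957, 22.3 kb in, was called in all 6 control libraries and 1 stimulated library (adjusted exact p = 0.0335). That call was in KO stimulated replicate 1, with a fold of 3.57. Peaks that were not called remained in the 3 WT stimulated libraries, with 4.78, 5.31 and 5.04, and in KO stimulated replicate 3, with 4.3. In the other direction, chr17:5344309-5345108, near the far end of the gene, had no peak in any control library and folds of 11.5, 9.44 and 9.51 in WT and 8.21, 8.04 and 12 in KO stimulated libraries (adjusted exact p = 0.0169). Regions of both kinds thus lay inside one gene.

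Arid1a (chr4, 133679008 to 133756769) encodes the main DNA-binding subunit of BAF. Its regions called numbered 5 in every control library, 6, 6 and 6 in WT stimulated and 5, 6 and 6 in KO stimulated libraries. Only KO stimulated replicate 1 was at the control level. The mean difference was 0.833 (adjusted exact permutation p = 0.0405). It did not hold with lists of 50% the length (0.0), with all deposited peaks (adjusted exact p = 0.479), with calls covering 50% of a region (0.369) or with summit windows (0.0618), and the replicate block left it without a test. The difference was carried by chr4:133748365-133749461, 7.9 kb into the gene, which had folds of 12.2, 11 and 19.6 in WT stimulated libraries, no peak in WT control libraries and calls in 2 of 3 KO stimulated libraries (adjusted exact p = 0.0335).

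Arid2, which encodes the DNA-binding subunit of the PBAF form, had 1 region of each kind. At chr15:96297406-96298335 calls were in 3 of 3 WT and 2 of 3 KO control libraries and in 0 of 6 stimulated libraries. The 3 WT stimulated libraries each held a peak that was not called, with folds of 4.78, 6.1 and 5.22, against 5.06, 7.67 and 10.9 in WT control. At chr15:96317469-96318068 no control library held a peak, and the WT stimulated libraries had folds of 9.09, 9.83 and 11.6 (both adjusted exact permutation p = 0.0335). At Smarca4, which encodes the ATPase BRG1, the region chr9:21698617-21699549 was called in 2 WT and 3 KO control libraries and in 0 of 6 stimulated libraries (adjusted exact p = 0.0335). Pbrm1, a PBAF subunit with bromodomains, had a region (chr14:31025662-31026376) called in the 3 WT stimulated libraries, with folds of 8.37, 7.67 and 9.32, and in no other library, a pattern whose exact permutation p over both genotypes cannot reach 0.05. Upstream of Smarcd3, a region 5.1 kb from the gene (chr5:24629565-24630424) was gained in WT cells as a call, although all 3 WT control libraries held a weaker peak there. Of the remaining SWI/SNF genes, Smarca2 had 4 to 6 called regions in a library, Smarcc2 1 or 2 and Brd9 0 to 2, with no separation by treatment in both genotypes.

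The CHD remodellers had 34 regions at 5 genes, 19 of them called in every library, with 4 regions higher and 3 lower after stimulation. Of all regions near genes, 6.12% were higher and 5.01% lower, and 34 regions are few to set against these shares. Chd1 encodes a remodeller that travels with elongating RNA polymerase, Chd2 its close relative, Chd3 and Chd4 the ATPases of the NuRD deacetylase complex, and Chd7 a remodeller of enhancers. Chd4 had a single region, called in all 12 libraries.

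Chd1 (chr17, 15704967 to 15772612) had 4 called regions in each of the 6 control libraries and 3 in each of the 6 stimulated libraries. No library departed from this split. Stimulated minus control was on average −1 (adjusted exact permutation p = 0.0203). It was due to chr17:15743072-15743948, which had folds of 5.06, 11.4 and 8.88 in WT control and 10.9, 7.47 and 9.38 in KO control libraries and no deposited peak in any stimulated library (adjusted exact p = 0.0169). With lists of 50% the length the difference at the gene was 0.167, and this region was no longer among those tested. The call at the gene also ended with calls covering 50% of a region (adjusted exact p = 0.0954), with all deposited peaks (0.154) and with summit windows (0.0828).

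At Chd2, chr7:73502797-73504011 rose from no call in 6 control libraries to folds of 42.3, 30.7 and 41.2 in WT stimulated libraries and 12.1, 12.7 and 26.9 in KO stimulated libraries (adjusted exact permutation p = 0.0169). It had the highest fold of the 34 regions within each WT stimulated list. Only 1 control library, of KO cells, held a weaker peak there, with a fold of 2.6.

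Chd7 had 17 regions, of which 3 rose and 2 fell, and its total did not separate: 12, 13 and 14 in WT control, 13, 14 and 14 in WT stimulated, 13, 11 and 13 in KO control and 12, 14 and 13 in KO stimulated libraries (mean difference 0.667, adjusted exact permutation p = 0.444). The treatments overlapped in both genotypes. The region chr4:8857398-8858227 had folds of 29.7, 23.2 and 28.5 in WT stimulated and 7.85, 9.44 and 18.1 in KO stimulated libraries and no call in controls. The region chr4:8916886-8917619, which lies 48.4 kb beyond the gene's upper end, had 27.3, 17.3 and 23.5 in WT and 3.93, 6.43 and 16.5 in KO stimulated libraries. KO control replicates 1 and 3 held peaks of 3.12 and 4.89 that were not called. The 3.93 was in KO stimulated replicate 1, all of whose peaks counted. In the other direction, chr4:8720467-8721598 had 9.11, 12.2 and 14.5 in WT control and 8.59, 5.97 and 10.2 in KO control libraries (adjusted exact p = 0.0169 for each of the 3 regions). Peaks that were not called remained there in all 3 WT stimulated libraries, with folds of 5.26, 6.69 and 5.78. At Chd3, a region 1.7 kb beyond the gene (chr11:69339661-69341561) was lost in WT cells only as a call, since all 3 WT stimulated libraries kept a weaker peak there, and the gene's total did not pass (mean difference −0.667, adjusted exact p = 0.137).

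Polycomb repressive complex 2 places the repressive methyl mark on histone H3 through its enzyme EZH2 with EED and SUZ12, and KDM6A and KDM6B remove it. These 5 genes had 16 regions, 10 of them called in every library, and 3 regions rose and 0 fell. At the 6.12% and 5.01% of all regions, 16 regions are too few to read anything from the 0. Suz12 with 1 region, Kdm6a with 1 and Kdm6b with 3 did not vary between libraries. The changes were thus at the enzyme and at EED.

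Ezh2 (chr6, 47530274 to 47595270) had 3, 3 and 4 called regions in WT control, 7, 7 and 7 in WT stimulated, 4, 4 and 4 in KO control and 6, 6 and 6 in KO stimulated libraries. Every stimulated library was above every control library, and the KO stimulated libraries lay below the WT stimulated ones. The mean difference was 2.83 regions (adjusted exact permutation p = 0.0203), the 96th largest rise of 14350 genes. The start region of Ezh2 (chr6:47593705-47596068) was called in all 12 libraries, with folds of 36.4 to 92.2, so the added regions are elsewhere.

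Inside Ezh2, chr6:47559376-47560156, 35.3 kb from the start, had no peak in WT control libraries, folds of 9.33, 9.24 and 13.2 in WT stimulated libraries and of 5.71, 6.43 and 9.46 in KO stimulated libraries, with weaker peaks in 2 KO control libraries (adjusted exact permutation p = 0.0169). The region chr6:47540391-47541693, 54.0 kb from the start, was called in 1 of 6 control and 6 of 6 stimulated libraries (adjusted exact p = 0.0335). Stimulated folds there were 12.2, 13 and 18.3 in WT and 6.78, 4.22 and 7.74 in KO libraries. Peaks that were not called lay in WT control replicate 2, with a fold of 4.92, and in the 3 KO control libraries, with 5.21, 3.63 and 5.28. A further region, chr6:47580501-47581319, had folds of 8.13, 7.86 and 11.2 in WT stimulated libraries and not even a weak peak in the other 9 libraries. Upstream, chr6:47620875-47621870 was called in every library except those of WT control cells, where 1 library held a weaker peak of fold 3.83 against 30.9 to 35.6 in WT stimulated libraries. With every deposited peak counted, the Ezh2 total still separated in WT cells (3, 4 and 5 against 7, 7 and 7) and no longer in KO cells (6, 5 and 6 against 6, 6 and 6).

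At Eed, chr7:90002457-90004314, 21.5 kb upstream, was called in 1 of 6 control and 6 of 6 stimulated libraries, with stimulated folds of 14.6, 11.4 and 16.8 in WT and 9.99, 7.83 and 11 in KO libraries (adjusted exact permutation p = 0.0335). All 3 WT control libraries held a peak there too, with folds of 5.06, 3.74 and 4.44, as did 2 KO control libraries.

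The DNA methyltransferases and TET enzymes, which add and oxidise the methyl group of cytosine, had 37 regions at 5 genes, 21 of them called in every library. The 4 that rose were all at Tet2, and 0 fell, where 6.12% of all regions near genes rose and 5.01% fell. With 37 regions, nothing is read from the 0. Dnmt3a, the enzyme of new DNA methylation, had 15 regions, 10 of them open in every library, and none changed past the test. Dnmt1, which copies methylation at replication, had 3 or 4 called regions in a library, Tet1 4 or 5 and Tet3 3 to 5.

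Tet2 (chr3, 133463677 to 133545136) had 3, 2 and 2 called regions in WT control, 7, 8 and 8 in WT stimulated, 4, 4 and 4 in KO control and 7, 8 and 8 in KO stimulated libraries. The stimulated libraries of both genotypes reached the same level, well clear of the controls, and KO controls lay above WT controls. The mean difference of 4.5 regions (adjusted exact permutation p = 0.0203) was the 20th largest rise of 14350 genes and the largest of the 44 genes. With all deposited peaks the counts were 3, 3 and 4 against 9, 9 and 9 in WT and 6, 4 and 5 against 8, 8 and 10 in KO cells, again without overlap, although the adjusted p was then 0.0844.

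The start region of Tet2 was called in all 12 libraries, with folds of 8.21 to 34.2, and the sequence before that start is printed above. Further into the gene, chr3:133514680-133515948, 29.1 kb from the start, had no peak in any control library and folds of 21.1, 17.3 and 26.5 in WT and 9.28, 7.23 and 12.9 in KO stimulated libraries. The region chr3:133525391-133526867, 18.3 kb from the start, had 13.9, 18.7 and 25.9 in WT and 5.71, 5.42 and 10.7 in KO stimulated libraries, and 1 weaker control peak. On the far side of the gene, chr3:133436514-133437326, 26.4 kb downstream, had no control peak and 9.81, 8.65 and 9.51 in WT and 6.78, 6.83 and 11.6 in KO stimulated libraries (adjusted exact permutation p = 0.0169 for each). Close to the start, at 2.1 kb, chr3:133541521-133543082 was called in 5 of 6 stimulated libraries and 0 of 6 controls (adjusted exact p = 0.0335). The region 18.3 kb upstream of the gene, chr3:133563396-133564103, was open in a different set: it had no peak in the 3 WT control libraries and was called in the other 9, with folds of 6.51, 5.12 and 8.21 in KO control libraries.

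**Figure D4:**
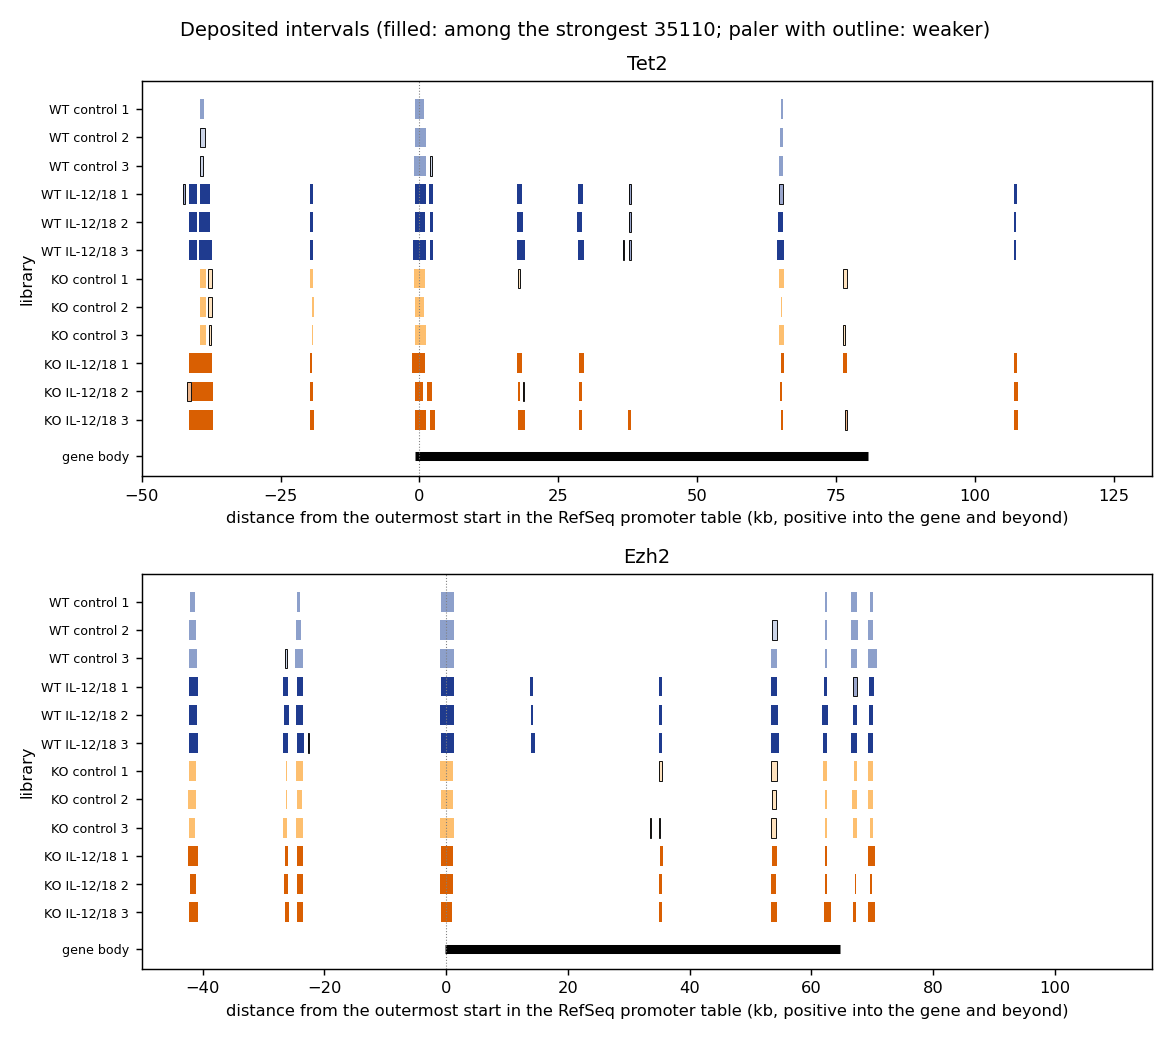
Deposited peaks by library (rows) over Tet2 and Ezh2, with distance in kb from the outermost start in the promoter table on the x axis, positive into the gene and beyond it. Filled bars are among the strongest peaks of the library that count as called and outlined bars are weaker; the start region is filled in all 12 rows of both genes, and further filled bars appear in stimulated rows.

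Histone deacetylases remove acetyl groups from histones and other proteins. Their 7 genes had 38 regions, of which 12 were called in every library. Past the test were 3 higher regions and 1 lower region, at Hdac4 and Hdac9, which encode class IIa members that shuttle between nucleus and cytoplasm. The shares over all regions near genes were 6.12% higher and 5.01% lower. Hdac1, Hdac2, Hdac5 and Hdac7 had no region past the test. Hdac5 had 4 called regions in every library except KO stimulated replicate 1, with 3, and Hdac7 had 3 to 6.

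Hdac4 had 17 regions, of which WT control libraries had 13, 12 and 12 calls, WT stimulated 13, 10 and 13, KO control 10, 10 and 8 and KO stimulated 10, 11 and 11. The treatments overlapped, and the total did not pass (adjusted exact permutation p = 0.67). Single regions did change: chr1:92069332-92069947 had folds of 7.59, 9.44 and 12.3 in WT control and 6.25, 6.61 and 8.01 in KO control libraries and no peak in any stimulated library. Calls went the other way at chr1:92119185-92119631, with 8.13, 7.08 and 9.88 in WT and 4.28, 4.62 and 7.52 in KO stimulated libraries and no call in controls (adjusted exact p = 0.0169 for both). There KO control replicates 1 and 3 held peaks that were not called, with folds of 4.43 and 4.49. At chr1:92088815-92090127 stimulated cells had calls in 5 of 6 libraries and controls in 0 (adjusted exact p = 0.0335). The start region of Hdac4 had folds of 69.7 to 153 and was called in every library.

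At Hdac9, a region 6.2 kb downstream, chr12:34040613-34041337, had folds of 16, 10.2 and 18.6 in WT stimulated and 4.64, 7.83 and 13.1 in KO stimulated libraries, while the WT control libraries held weaker peaks of 3.8, 3.15 and 2.82 (adjusted exact permutation p = 0.0335). KO control replicate 3 was called there, with a fold of 7.62, and replicate 1 held a peak of 5.47 that was not called. The 4.64 was in KO stimulated replicate 1, all of whose peaks counted. Hdac2, a deacetylase of the NuRD and Sin3 complexes, had 1 called region in each control library, 2 in each WT stimulated library and 2, 1 and 1 in KO stimulated libraries. Its mean difference of 0.667 did not pass (adjusted exact p = 0.0772). The second region, chr10:36987131-36987634, had no control peak and folds of 8.37, 8.45 and 12.9 in WT stimulated libraries.

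EP300 and CREBBP are the paired acetyltransferases of enhancers, and KMT2A, KMT2C and KMT2D methylate histone H3. Their 5 genes had 16 regions, 7 of them called in every library. Of the 16 regions, 1 at Kmt2a and 1 at Kmt2c rose and 1 near Ep300 fell, while Crebbp and Kmt2d had none past the test. Among all regions near genes 6.12% rose and 5.01% fell, and 16 regions are too few for a comparison.

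Kmt2a (chr9, 44803355 to 44881352), which encodes a methyltransferase of promoters, had 2 called regions in each of the 6 control libraries, 4, 3 and 3 in WT stimulated and 3, 4 and 4 in KO stimulated libraries. No stimulated library fell to the control level. Stimulated minus control was on average 1.5 (adjusted exact permutation p = 0.0203). Its region chr9:44873621-44874385, 7.3 kb into the gene, had folds of 10.8, 14.5 and 14.9 in WT and 6.78, 8.24 and 12.7 in KO stimulated libraries, no peak in WT control libraries and weaker peaks of 3.38, 3.41 and 4.49 in KO control libraries (adjusted exact p = 0.0169). With all deposited peaks the KO totals of Kmt2a overlapped (6, 4 and 5 against 3, 5 and 5), and without KO stimulated replicate 1, at 42520 peaks a library, the difference was 1.0 (adjusted exact p = 0.292), and with lists of 50% the length it was 0.0.

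Kmt2c (chr5, 25271795 to 25498855), an enhancer methyltransferase, had 1, 2 and 2 called regions in WT control, 3, 3 and 3 in WT stimulated, 1, 1 and 2 in KO control and 2, 2 and 3 in KO stimulated libraries. The WT groups separated and the KO groups met at 2. The mean difference was 1.17 (adjusted exact permutation p = 0.0405). Leaving out KO control replicate 1 or 2 ended the call, with an adjusted exact p of 0.0666 or 0.0672, as did calls covering 50% of a region (0.276), all deposited peaks (0.479) and lists of 50% the length (difference 0.0). The region chr5:25404976-25406071, 93.3 kb into the gene, had folds of 15.1, 14.9 and 16.2 in WT and 4.28, 7.83 and 10.5 in KO stimulated libraries, and 1 weaker control peak (adjusted exact p = 0.0169).

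Ep300 (chr15, 81586209 to 81652077) had 2 called regions in each of the 6 control libraries, 1, 1 and 2 in WT stimulated and 1, 1 and 1 in KO stimulated libraries. Only WT stimulated replicate 3 kept both. Stimulated minus control was on average −0.833 (adjusted exact permutation p = 0.0405). The region concerned lies 46.0 kb upstream, at chr15:81539246-81540200, and had folds of 12.1, 16.5 and 18.6 in WT control and 15.1, 11.7 and 11.3 in KO control libraries and no peak in KO stimulated libraries (adjusted exact p = 0.0335). At that distance its assignment to Ep300 rests on the limit of 50 kb, and at 20 kb, as with lists of 50% the length, the gene showed no difference. With all deposited peaks the adjusted exact p was 0.154. At Kmt2d, chr15:98868888-98870387 was lost in WT cells as a call, with weaker peaks of 5.02, 4.92 and 6.53 in the WT stimulated libraries.

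SATB1 folds chromatin into loops and CTCF anchors them. The 2 genes had 7 regions, 3 of them called in every library, and the 2 that rose were both at Satb1. Over all regions near genes 6.12% rose, and 7 regions are too few to compare with that share. Ctcf had 1 or 2 called regions in each library of every group.

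Satb1 (chr17, 51736187 to 51833290) had 2, 3 and 3 called regions in WT control, 4, 4 and 4 in WT stimulated, 3, 2 and 2 in KO control and 4, 3 and 4 in KO stimulated libraries. WT groups separated and KO groups met at 3. The mean difference was 1.33 (adjusted exact permutation p = 0.0357), and with lists of 50% the length it was −0.333. Within 20 kb of the gene it was 0.333 (adjusted exact p = 0.626), which leaves out the upstream region, and with calls covering 50% of a region it could not be tested. The region chr17:51862189-51862939, 28.9 kb upstream, had folds of 12.4, 16.1 and 13.8 in WT and 6.42, 8.24 and 11.6 in KO stimulated libraries (adjusted exact p = 0.0169). Weaker peaks were in 1 WT control library, with a fold of 3.74, and in the 3 KO control libraries, with 4.69, 3.63 and 4.69. A region of 4761 bp over the far end of the gene, chr17:51733783-51738543, had no control peak and folds of 8.13, 7.47 and 9.14 in WT and 4.64, 3.21 and 6.66 in KO stimulated libraries (adjusted exact p = 0.0335).

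When weaker peaks were counted as well, the treatment difference at Satb1 was larger in WT cells. In the full deposited lists the gene had 29 regions, with 3, 6 and 5 in WT control, 26, 24 and 27 in WT stimulated, 6, 4 and 6 in KO control and 7, 7 and 13 in KO stimulated libraries. The WT stimulated libraries stood far above all 9 others, and the KO stimulated libraries lay above all KO control libraries, with replicate 3 the highest of them. The WT rise of 21.0 regions was the largest of 15795 genes, ahead of Foxp1 at 18.3, Etv6 at 15.7, Fndc3a at 15.7 and Lpp at 15.3, while the mean WT rise over all genes was 0.466 and the median 0. The KO rise was 3.67. The treatment effect had an unadjusted exact permutation p of 0.005, the smallest the 400 rearrangements give, and an adjusted p of 0.0844. The difference between the genotypes' rises was −17.3 regions (unadjusted exact permutation p = 0.035, adjusted p = 0.44) and so did not pass over all genes.

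Peaks covered 4.81, 5.94 and 6.02 kb of the 97.1 kb Satb1 gene body in WT control libraries and 30.1, 20.2 and 25.6 kb in WT stimulated libraries. In KO cells they covered 5.96, 5.0 and 5.42 kb in control and 6.06, 6.65 and 10.1 kb in stimulated libraries. The WT stimulated group thus had 25.3 ± 4.96 kb of peaks (SD, n = 3) where the other 3 groups had means of 5.46 to 7.6 kb. Of the 29 regions, 13 were gained in WT cells. Their peaks were weak: folds ran from 2.56 to 9.14, and in 8 of the 13 the highest was under 5. In KO stimulated cells 1 of the 13 was called in all 3 libraries, 7 in 1 or 2, and 5 in none. List length moves with this count, since WT stimulated lists held 55146 to 63128 peaks and KO stimulated lists at most 54303. The nearest lengths were 54303 in KO stimulated replicate 3, with 13 Satb1 regions, and 55146 in WT stimulated replicate 2, with 24. At 42520 peaks a library, without KO stimulated replicate 1, Satb1 had 3, 4 and 4 in WT control, 5, 6 and 6 in WT stimulated, 5, 3 and 3 in KO control and 5 and 4 in KO stimulated libraries.

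**Figure D5:**
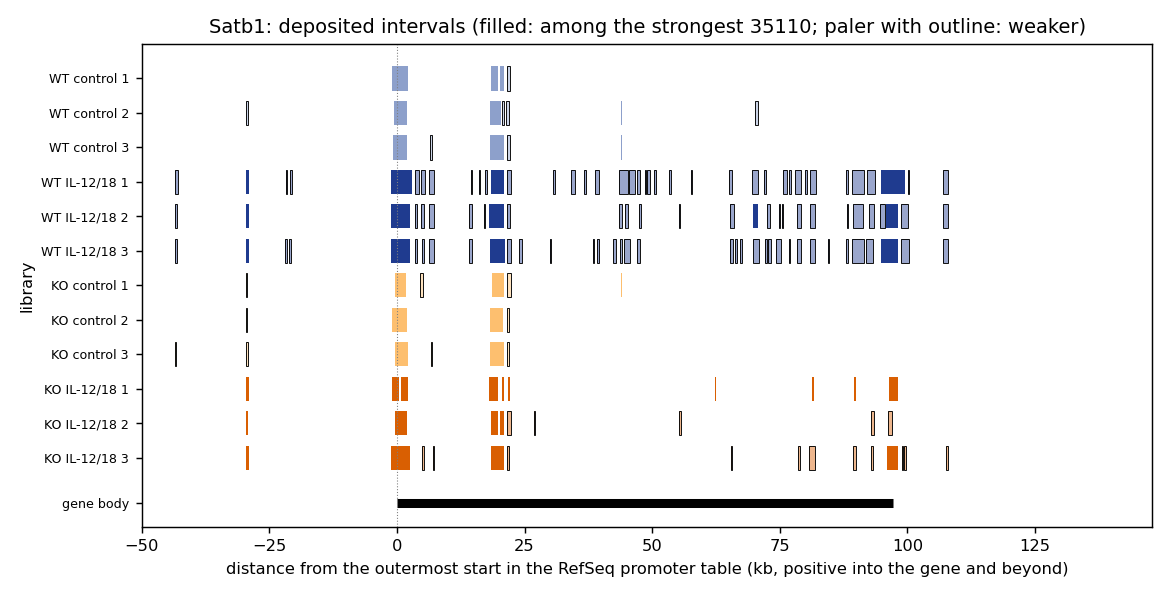
Every deposited peak over Satb1 by library (rows), with distance in kb from the outermost start in the promoter table on the x axis, positive into the gene and beyond. Filled bars are among the strongest peaks, equal in number in every library and outlined bars are weaker; the 3 WT stimulated rows carry 24 to 27 regions each, mostly outlined bars inside the gene, and the other 9 rows carry 3 to 13.

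Over all 320 member regions of the full lists, WT stimulation gained 48 (15%, of which 13 at Satb1) and lost 4 (1.25%), against 10.9% and 1.55% of all regions. KO stimulation gained 6 (1.88%) and lost 15 (4.69%), against 2.11% and 4.18%. In the treatment test on these lists, 5 of 69 testable member regions were higher (7.25%, against 9.2% of all testable regions) and 3 lower (4.35%, against 3.18%). The higher ones were at Arid1b, Satb1, Smarca4 and, with 2, Tet2, and the lower ones at Chd1 and, with 2, Hdac4. At Smarca4 this is another region than the one described above, which was lower and held a deposited peak in every control library. No gene total passed on the full lists, of the members or of the series (0.0% higher and 0.0% lower of the 6850 that could be tested), while 9 of 28 members and 30.0% of all genes had an unadjusted exact permutation p of 0.05 or less.

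The same measures in other chromatin genes give a frame for the members. A second list of 126 regulators, among them other CHD, KDM, KMT and bromodomain genes, had 395 regions at 120 genes, of which 54.7% were called in all 12 libraries. Of its 65 testable regions 17 rose and 17 fell (26.2% each). Some change was seen at 21.7% of its genes, against 37.2% of the 43 and 23.4% of all genes. Its gene totals rose at 7 and fell at 7 of 41 testable genes. The number of its regions called per library was 312.0 ± 5.57 in WT control and 307.7 ± 6.35 in WT stimulated cells (SD, n = 3), which overlapped. In KO cells it was 314.3 ± 2.52 in control and 292.3 ± 12 in stimulated cells, with no overlap. The second list had a median of 2 regions a gene, against 4 for the members. Both lists were chosen with earlier results of these data known, and the 2 were not tested against each other.

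Loss of Regnase-1 changed no member region and no member total past the adjusted test. In the series as a whole the genotype test and the test of a difference between the treatment effects also called 0.0% of 1817 regions and 0.0% of 2379 genes. At an unadjusted exact permutation p of 0.05 or less, 3 of the 6 testable member regions differed by genotype, against 26.4% of all testable regions, and 0 of 6 in the difference of treatment effects, against 6.88%. Of the 14 testable member totals, 3 differed by genotype without adjustment (19.6% of all genes) and 2 in the treatment effect (7.36%).

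In control cells, 3 member regions were called in all KO and no WT libraries (1.37% of 219, against 1.14% of all regions) and 1 the reverse (0.457%, against 0.892%). The 3 were at Tet2 and Ezh2, the upstream regions described above, and at Hdac1. In stimulated cells 1 region, at Tet1, was gained in KO cells (0.457% against 1.03%) and 3, at Kmt2c, Ezh2 and Pbrm1, were lost (1.37% against 1.71%). These shares lay near those of all regions.

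The region of Hdac1, a class I deacetylase, at chr4:129525303-129525925 had folds of 7.81, 9.17 and 9.38 in KO control and 3.21, 5.62 and 4.3 in KO stimulated libraries. Peaks that were not called lay in 2 WT control libraries, with folds of 2.95 and 4.84, and WT stimulated libraries had none. It was called in 5 of 6 KO and 0 of 6 WT libraries (unadjusted exact permutation p = 0.02, adjusted 0.147). At Tet1, chr10:62825379-62826045 was likewise called in 5 of 6 KO and 0 of 6 WT libraries (unadjusted exact p = 0.02, adjusted 0.147). Yet 5 WT libraries held peaks that were not called, with folds of 4.72 and 4.84 in control and 6.94, 5.11 and 6.71 in stimulated cells. The called KO peaks had 5.12 and 6.84 in control and 2.85, 5.22 and 6.45 in stimulated cells. The 2.85 was in KO stimulated replicate 1, all of whose peaks counted. The difference is thus one of rank within each library's list. At Hdac4, chr1:92050702-92053287 had calls in 6 of 6 WT libraries and in 2 of 6 KO libraries, and the 3 KO control libraries held weaker peaks of 4.69, 3.84 and 4.1 (unadjusted exact p = 0.05, adjusted 0.189). The totals of Tet1, Hdac1 and Hdac4 had an unadjusted exact permutation p of 0.02 for the genotype and an adjusted p of 0.188.

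In stimulated cells, chr5:25366922-25367597 in Kmt2c had folds of 17.2, 15.5 and 17.7 in WT libraries and no deposited peak in KO libraries. The Ezh2 and Pbrm1 regions named above showed the same split, with 1 weaker KO peak at Pbrm1. The difference between treatment effects had an unadjusted exact permutation p of 0.02 at Ezh2 and 0.04 at Arid1b, and an adjusted p of 0.68 for both.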

How the data were processed

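ATAC-seq was performed on 100000 splenic NK cells per library with a commercial kit, per the labels' protocols. The authors deposited 1 peak list per library, with MACS2 2.1.1.20160309, Bowtie2 2.3.4.1, cutadapt 4.1, SAMtools 1.15.1, deepTools 3.4.2 and FastQC 0.11.9 and build mm10 named in the submitters' processing notes; the settings and any shift of reads for the transposase's cut are not given in the sources used here. Each deposited peak carries a fold enrichment (a ratio over its own library's background) and −log10 p and −log10 q values, all the authors'. Read depth is unknown, and no counts were recovered.

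Distinct intervals on chromosomes 1 to 19, X and Y were ranked by their strongest −log10 q, and the 35110 strongest of each library, the length of the shortest list, were merged at 1 bp of overlap. Regions called in at least 2 libraries were assigned, up to 50 kb away, to whichever protein-coding gene body was nearest (RefSeq, GRCm38.p6), ties going to the nearer gene end. All 44 gene symbols matched that table, which holds no exons. Region and gene-total tests were exact two-sided permutations within strata, with 400 rearrangements and a smallest p of 0.005. Benjamini-Hochberg adjustment at 0.05 covered every region or gene in the series able to reach 0.05. The tests were tried on simulated calls. Samples were grouped by genotype and treatment in the labels, 3 libraries each.

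Regions are named by rule: each gene with a region or total past a test, with at most 3 regions a gene in order of adjusted p and distance, then genes gained or lost in 1 comparison. The members and lists were chosen with earlier results of these data known. Alternatives were lists of 17555 peaks or all peaks, calls covering 50% of a region, summit windows of 500 bp, regions in at least 3 libraries, a 20 kb limit, each library left out and a replicate block. Lists of 42520 peaks without KO stimulated replicate 1 were added after seeing the data. Python 3.11.15, numpy 2.4.6, pandas 2.3.3, scipy 1.17.1 and matplotlib 3.10.9 were used.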

Additional observations from a re-analysis of the deposited data

How the results depend on the processing

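The results above rest on which peaks count. With 50% as many peaks per library, 7 regions were higher and 7 lower after stimulation, WT cells gained 9, KO cells gained 6 and lost 4, KO against WT gained 1 in control cells and gained 2 and lost 0 in stimulated cells, and the WT rise in called member regions was 2.33. Arid1b (0.5), Chd1 (0.167) and Satb1 (−0.333) changed sign there, Arid1a, Ep300, Kmt2a and Kmt2c had a difference of 0.0 and lost their calls, and Ezh2 (1.5) and Tet2 (1.67) kept theirs. Of the 34 regions 2 kept their call there, 5 lost it and the rest were not among the regions. With all deposited peaks, 5 regions were higher and 3 lower, 0 gene totals rose and 0 fell, WT cells gained 48 and lost 4, KO cells gained 6, KO against WT lost 0 in control and 16 in stimulated cells, and the called member regions changed by 58.0 in WT and by −17.0 in KO cells (11 and 1.33 above). That set kept the call of 6 of the 34 regions and of none of the 9 gene totals. When a call had to cover 50% of a region, 1 gene total fell, KO against WT gained 0 and lost 4 in control and gained 0 and lost 6 in stimulated cells, and the KO difference in called regions was −6.0. That setting ended the calls of 10 of the 34 regions and of 5 gene totals, Arid1a, Arid1b, Chd1, Kmt2c and Satb1. With summit windows, KO against WT lost 0 in control cells, and Arid1a and Chd1 lost their calls. Within 20 kb, where Ep300 and Satb1 lost theirs, the WT rise was 6.33. At 42520 peaks without KO stimulated replicate 1, chosen after seeing the data, KO against WT gained 4 in stimulated cells and the KO difference was −3.0. That setting kept the calls of 23 of the 34 regions and of 6 of the 9 gene totals. Apart from fewer or more peaks by construction, the cause was not tested. Requiring 3 libraries with a call moved none of the 18 counts, and kept all 34 regions and 9 gene totals.

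With each library left out in turn, 22 to 26 regions were higher and 12 to 16 lower, 5 to 8 gene totals rose and 3 to 4 fell, WT cells gained 27 to 30 and lost 12 to 16, and KO cells gained 14 to 20 and lost 13 to 16. KO against WT gained 3 to 6 and lost 1 to 3 in control cells, and gained 1 to 3 and lost 3 to 8 in stimulated cells. The WT difference in called regions was 8.67 to 13.2 and the KO difference −0.333 to 2.67, the lowest without KO stimulated replicate 3. All 34 regions kept their call under each of these omissions, and 8 of the 9 genes did, Kmt2c being the exception. With the replicate number as a block, 12 regions were higher and 4 lower, since the block leaves 64 rearrangements and a smallest exact p of 0.0312. It kept 16 of the 34 regions and 7 of the 9 gene totals, since Arid1a and Ep300 could not be tested. The labels do not say that a number marks a shared animal or day, and the libraries were treated as unpaired. Deviations of the 18 same-numbered pairs were correlated with r from −0.029 to 0.068, and those of the 36 different-numbered pairs from −0.065 to 0.045. No pair of either kind passed 0.1, so this check cannot decide whether the libraries are paired. Peak lists give no read depth, and a region without a call in a shorter list may hold a weaker signal.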
